A study of Mus musculus and Homo sapiens with 12 samples.

Results

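The nucleolar ribosome assembly factors described here are 58 genes whose proteins act in the nucleolus on the way from the ribosomal RNA precursor to the ribosomal subunits. They were chosen as a list of named genes and matched by gene symbol without regard to case, and all 58 were found once in the 55487 genes of the mouse table and once in the 78932 genes of the human table. By role they fall into 4 general nucleolar proteins, 8 proteins of small nucleolar ribonucleoprotein particles (snoRNPs), 28 factors of the small subunit and 18 factors of the large subunit. All 58 passed the filter on low counts in both species.

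RNA sequencing of polyadenylated RNA had been done in 12 libraries, 3 in each of 4 groups. The mouse libraries were made from LK cells, which are blood progenitors without lineage markers and with surface Kit, sorted from fetal liver at E13.5. The WT group was Ddx21f/f, with loxP-flanked alleles and no Cre named in its labels, and the Ddx21-cKO group was Vav-Cre; Ddx21f/f, with Cre driven by the Vav promoter of blood cells. The human libraries came from cells of the H1 embryonic stem cell line that were differentiated towards blood stem cells in culture and were transduced with lentivirus carrying shNC-mCherry or shDDX21-mCherry; sorting for surface CD34, CD43 and CD45 and for the hairpin vector followed after 2 days. All human libraries come from 1 cell line, and the labels name 1 hairpin against DDX21. They do not say whether replicates came from separate embryos or cultures, so p-values measure the spread between these libraries, which may be technical.

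The ribosome is built in the nucleolus. RNA polymerase I makes a long precursor RNA, snoRNPs guide its methylation and pseudouridylation, the U3 snoRNP and the small-subunit factors fold and cut the part that becomes 18S rRNA, and the large-subunit factors process the parts that become 5.8S and 28S rRNA. DDX21, the targeted gene, is a nucleolar RNA helicase that works in the same precursor. Blood progenitors divide fast, and many assembly factor genes are known targets of the growth regulator MYC.

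The targeted gene was read first as a check on the labels. Ddx21 had 31438, 29393 and 30866 counts in the WT libraries against 6339, 6981 and 6208 in the cKO libraries, which left 19.7% of the WT level (log2 fold change -2.35, SE 0.03). DDX21 had 9012, 7128 and 8319 counts with shNC against 1336, 1168 and 1177 with shDDX21, or 14.5% of the control level (log2 fold change -2.78, SE 0.03). Libraries held between 21116079 and 23898130 counts in the mouse and between 15289510 and 19798608 in the human cells. The biological coefficient of variation over all genes was 10.5% in the mouse and 2.23% in the human libraries. Within both mouse groups the libraries also differed by the GC content of transcripts, and values with a GC offset are given with the mouse results. In bulk RNA, fewer cells of a type and less RNA per cell cannot be told apart.

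Beside the assembly factors, 16 of 16 genes of cycling cells fell in both experiments. Their summed level was 9015 to 9229 CPM (counts scaled to a common library size) in WT and 6656 to 6892 in cKO libraries, with a median log2 change of -0.47. In the human cells it was 2774 to 2795 with shNC and 1599 to 1624 with shDDX21, with a median of -0.75. Of 9 blood progenitor markers in the mouse, 4 rose (Meis1 by 1.02, Cd34 by 0.69, Ptprc by 0.51 and Lmo2 by 0.17 on the log2 scale) and 2 fell, with a median of 0.17. Those that fell were Spn and Kit, the marker of the sort, which stood at 362 ± 5.02 CPM in WT and 317 ± 5.17 in cKO (SD, n = 3). Of 8 matched in the human cells, 4 rose, CD34 among them (249 ± 3.06 CPM with shNC and 297 ± 1.87 with shDDX21), and 4 fell, PTPRC, which encodes CD45, among them, with a median of -0.16. Erythroid markers fell for 7 of 11 in the mouse (2 rose, median -0.50, summed level 1491 to 1644 CPM in WT and 1158 to 1255 in cKO), and rose for 8 of 12 in the human cells (3 fell, median 0.52, 743 to 762 against 804 to 824 CPM). The summed level of 9 hepatocyte markers was 1.44 to 2.04 CPM in WT and 29.4 to 33.6 CPM in cKO libraries, where 4 of the 4 with enough counts rose, and 5 of 7 endothelial markers rose. Mouse macrophage markers summed to 7.94 to 8.66 CPM in WT and 7.42 to 9.02 CPM in cKO, where Cd68 rose, Adgre1 fell and C1qc was at 0 in all libraries. In the human cells the 3 macrophage markers matched, C1QA, C1QB and C1QC, all fell (median -1.10). Human endothelial markers summed to 1801 to 1850 CPM with shNC and 1592 to 1606 with shDDX21, where 3 of 7 rose and 3 fell. The 2 pluripotent cell markers matched in the human cells summed to 230 to 239 CPM with shNC and 278 to 289 with shDDX21, where 1 rose and 0 fell. All 4 Y-linked genes tested in the mouse were higher in cKO (median log2 1.03), so the mix of embryo sexes cannot be told apart from genotype; 3 of the assembly factor genes, Dkc1, Utp14a and Las1l, are X-linked. The part of these shifts in the changes below was not tested.

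In the human cells most of the assembly factors fell, while in the mouse cells most were not called in either direction. Of the 58 mouse log2 changes 43 were below 0, where 7446 of 14918 were over all genes. With shDDX21, 44 of the 58 genes (75.9%) fell and 0 rose by edgeR's quasi-likelihood test at an adjusted p (Benjamini-Hochberg over all genes tested) under 0.05, where 27.4% of all 20188 genes tested fell and 25.3% rose. Their median log2 fold change was -0.37, against 0.01 over all genes, and 13 of them (22.4%) fell at least 1.5-fold, where 10.4% of all genes did. In the cKO cells 14 of 58 fell (24.1%) and 4 rose (6.90%), where 15.8% of all 14918 genes fell and 20.7% rose. The mouse median was -0.09 against 0.00 over all genes, the range was -0.87 to 0.50, and 1 gene, Ppan, fell at least 1.5-fold, as 4.65% of all genes did. The mouse count of 18 called genes fell to 10 without WT replicate 1, to 10 without WT replicate 2, to 12 without cKO replicate 2 and to 7 without cKO replicate 3. It rose without WT replicate 3 (17 fallen and 4 risen) and without cKO replicate 1 (21 fallen and 4 risen), and no called gene changed sign. Human log2 changes ran from -0.95 to 0.28.

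Library by library, the human groups did not overlap with shDDX21 below for 45 of 58 genes (77.6%) and with shDDX21 above for 1, where 29.5% and 27.9% of all genes did so. In the mouse, 17 genes (29.3%) had all cKO libraries below all WT libraries and 7 (12.1%) had them above, where 21.4% and 27.6% of all genes did so. The summed level of the 58 genes was 7376 ± 22.2 CPM with shNC and 5691 ± 56.3 CPM with shDDX21. The same sum was 22508 ± 62.4 CPM in WT and 21203 ± 270.5 CPM in cKO libraries (SD, n = 3). With libraries scaled by their total counts the mouse split became 6 risen and 6 fallen, and with relative log expression factors it became 2 risen and 16 fallen.

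**Figure D1:**
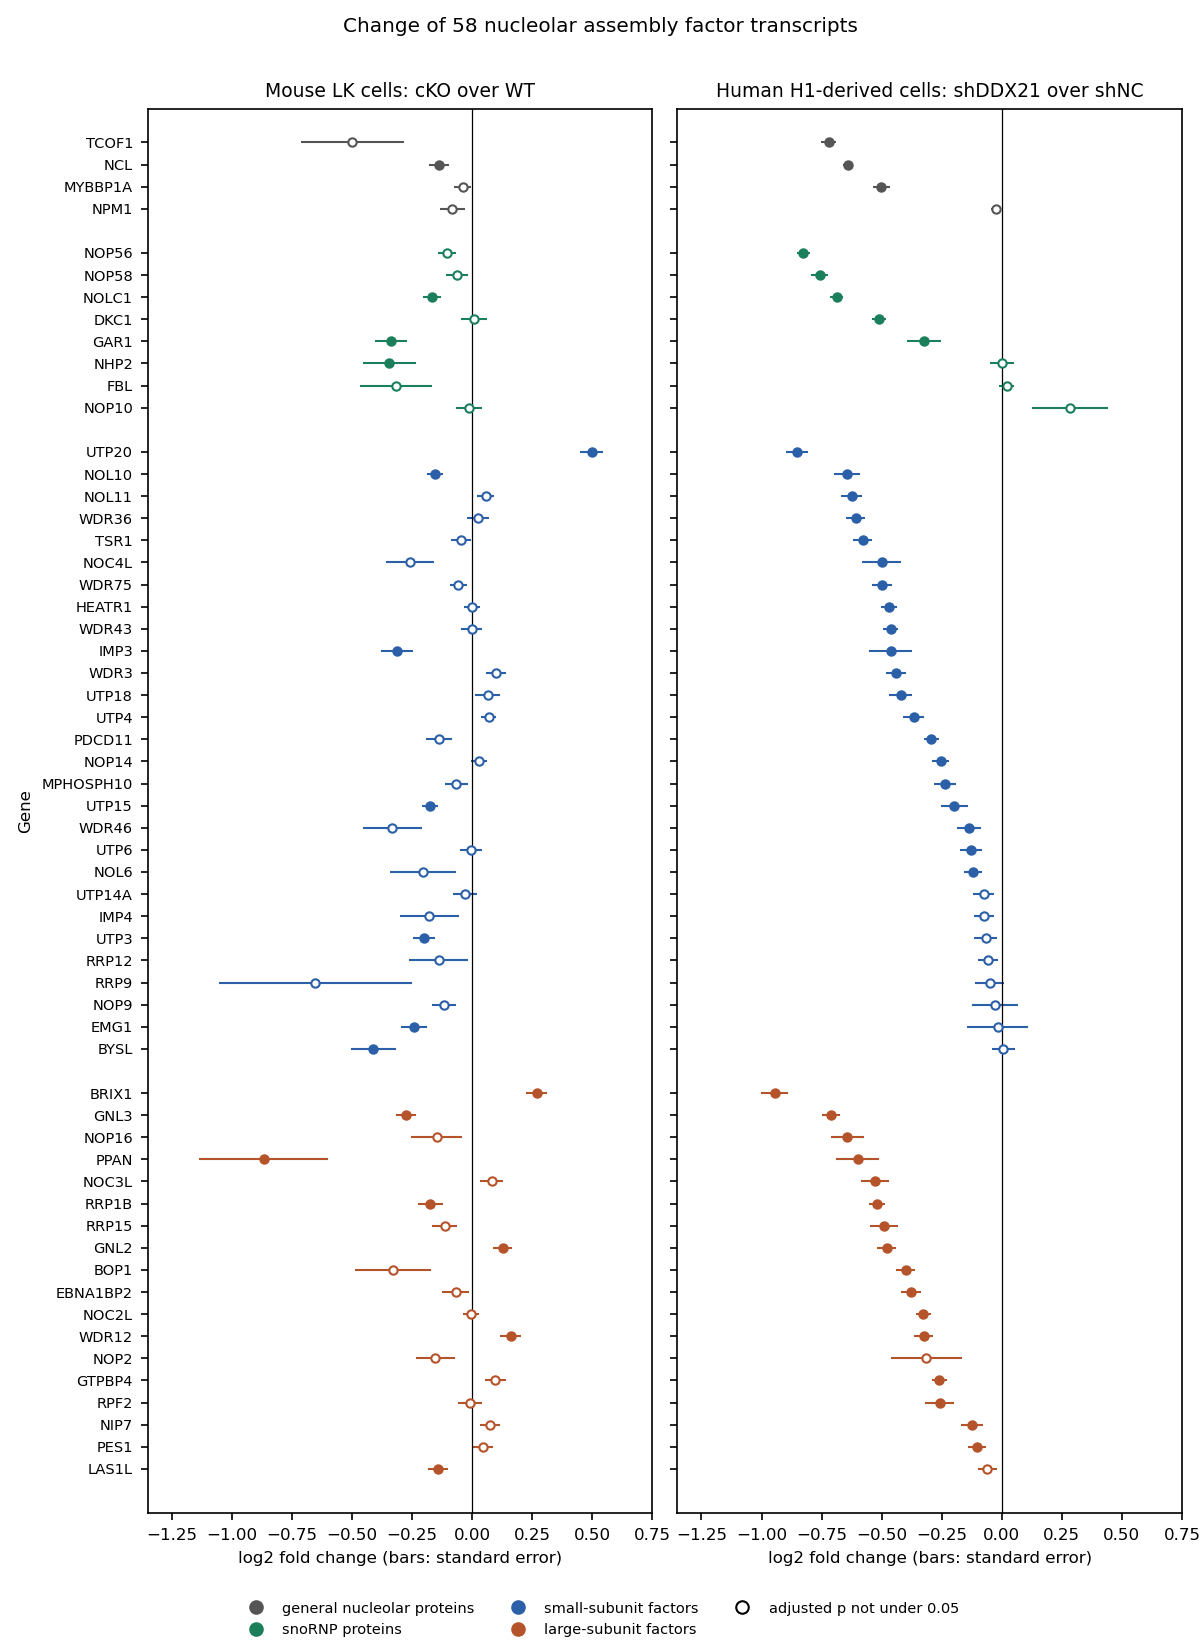
Log2 fold change of each of the 58 genes in mouse (left, cKO over WT) and human cells (right, shDDX21 over shNC), with standard errors; filled points have an adjusted p under 0.05 and colours mark the roles. The human points lie mostly left of 0, while mouse points cluster near 0 with UTP20 and BRIX1 on the right and PPAN far to the left.

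Of the general nucleolar proteins, nucleolin (Ncl), an abundant RNA-binding protein of the ribosomal RNA precursor, was read at 5040.4, 5039.7 and 5030.1 CPM in WT libraries and 4464, 4807 and 4472 in cKO libraries. The fall was small but the groups did not overlap (log2 fold change -0.14, SE 0.04, adjusted p = 0.0375 by edgeR's quasi-likelihood test). It did not hold its call under 10 of 14 other settings, with adjusted p up to 0.362. Human NCL was read at 1395, 1401 and 1409 CPM with shNC against 915, 896 and 886 with shDDX21. This was a fall to 64.1% (log2 -0.64, SE 0.02, adjusted p = 1.12e-41, edgeR).

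Treacle (TCOF1), a nucleolar scaffold for RNA polymerase I transcription, fell in the human cells from 160.2, 160.0 and 158 CPM to 95.9, 99.2 and 95.0 CPM (log2 -0.72, SE 0.03, adjusted p = 1.86e-31, edgeR). Mouse Tcof1 was scattered, at 298, 273 and 200.3 CPM in WT and 234, 136 and 176 CPM in cKO libraries, so that the groups overlapped (log2 -0.50, SE 0.21, adjusted p = 0.108). MYBBP1A, a MYB-binding nucleolar protein, was at log2 -0.50 with shDDX21 (called) and -0.04 in the cKO (not called). Nucleophosmin (NPM1), a histone and ribosome chaperone of the outer nucleolus, was not called in either experiment. Its human level was 1236 ± 10.5 CPM with shNC and 1215 ± 29.4 with shDDX21, with a 95% interval of the log2 change from -0.06 to 0.01. Its sign depended on the scaling: upper-quartile factors called human NPM1 higher and total counts called it lower, with log2 changes within -0.05 to 0.05. In the mouse it was 3415 ± 154 against 3225 ± 159 CPM (SD, n = 3). NPM1 has near-identical processed copies in both genomes, and how reads fitting several places were counted is not given in the sources used here.

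The snoRNP proteins form 2 kinds of particle. Box C/D particles, which methylate ribose in rRNA, hold fibrillarin (FBL), the methyltransferase, with NOP56 and NOP58. Human NOP56 was read at 257, 261 and 263 CPM with shNC and 150.3, 148 and 142 CPM with shDDX21 (log2 -0.83, SE 0.03, adjusted p = 2.29e-38, edgeR). Human NOP58 was at 122, 123 and 127 CPM against 72.6, 73.4 and 73.6 CPM (log2 -0.76, SE 0.04, adjusted p = 3.26e-30, edgeR). These scaffold proteins fell with no overlap of libraries, whereas the methyltransferase of the same particle was read at 156, 152 and 159.7 CPM against 165, 155 and 154 CPM. The FBL log2 change was 0.02, with a 95% interval from -0.04 to 0.08.

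In the mouse, none of these box C/D proteins passed the test, Fbl included (log2 -0.32, adjusted p = 0.138). With a GC offset Fbl and Nop56 were called lower and Nop58 was not called. Nop56 was read at 693, 712 and 737 CPM in WT and 652, 684 and 658 CPM in cKO libraries (log2 -0.10, adjusted p = 0.0706, edgeR). All 3 cKO libraries lay below all 3 WT libraries. Nop58 was read at 492, 481 and 498 CPM against 450.0, 499 and 461 CPM, where the groups overlapped (log2 -0.06, adjusted p = 0.336). The exons of NOP56 and NOP58 overlap annotated snoRNA genes of their introns, on 8.0% of exon bases for mouse Nop56 and 9.54% for human NOP56.

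Box H/ACA particles, which turn uridine into pseudouridine, hold dyskerin (DKC1), the pseudouridine synthase, with GAR1, NHP2 and NOP10. Gar1 was read at 122, 122 and 107 CPM in WT and 97.0, 87.6 and 93.1 CPM in cKO libraries (log2 -0.34, SE 0.07, adjusted p = 0.00714, edgeR). Nhp2 was read at 165, 145 and 125 CPM against 125, 104 and 114 CPM, and the highest cKO library lay above the lowest WT library (log2 -0.34, SE 0.11, adjusted p = 0.0452). The pair fell in the mouse, while Dkc1 and Nop10 were at log2 0.01 and -0.01 and were not called. Without WT replicate 1 the Nhp2 change was -0.24 with adjusted p = 0.129, without WT replicate 2 it was -0.35 (0.113), without cKO replicate 2 it was -0.26 (0.102) and without cKO replicate 3 it was -0.34 (0.127).

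With shDDX21, DKC1 fell from 219 ± 3.20 to 154 ± 2.65 CPM (log2 -0.51) and GAR1 from 25.0 ± 0.727 to 19.9 ± 0.994 CPM (log2 -0.33, adjusted p = 6.85e-05, edgeR). NHP2 was at log2 -0.00 with a 95% interval from -0.10 to 0.10. NOP10 was read at 3.60 to 5.24 CPM in the human libraries and was not called (log2 0.28, interval -0.03 to 0.60). NOLC1, a chaperone that binds both kinds of particle, fell in both experiments, by 0.17 in the mouse and by 0.69 in the human cells on the log2 scale.

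Of the 28 small-subunit factors, 20 fell and 0 rose with shDDX21 (median log2 -0.27), and 6 fell and 1 rose in the cKO cells (median -0.09). The human 71.4% stands beside 27.4% of all genes, whereas the mouse 21.4% fallen is near the 15.8% of all genes. The same shares over all genes are the background for the complexes named next, which hold few genes each. The UTP-A complex, which binds the precursor first and includes HEATR1, UTP4, UTP15, WDR43, WDR75 and NOL11 here, fell in 6 of 6 members in the human cells (median -0.47). In the mouse 1 of those 6 was called, Utp15, which fell by 0.17. The UTP-B complex was represented by UTP6, UTP18, WDR3 and WDR36. It fell in 4 of 4 members in the human cells (median -0.43) and in 0 of 4 in the mouse (median 0.04, 0 risen). Of the MPP10 complex, MPHOSPH10, IMP3 and IMP4, 2 of 3 fell in the human cells and 1 of 3 in the mouse.

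UTP20, a very large helical-repeat scaffold of the small-subunit precursor, moved in opposite directions. Mouse Utp20 (chr10:88746607-88826804, minus strand, mm10) was read at 334, 333 and 356 CPM in WT and 468, 509 and 466 CPM in cKO libraries. Every cKO library lay above every WT library, and the rise was the largest among the 58 genes (141% of WT, log2 0.50, SE 0.05, adjusted p = 0.000262, edgeR). Human UTP20 (chr12:101280105-101386618, plus strand, hg38) was read at 75.8, 84.3 and 84.4 CPM with shNC and 43.9, 47.5 and 43.8 CPM with shDDX21. That was a fall to 55.3% (log2 -0.85, SE 0.05, adjusted p = 7.89e-27, edgeR).

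Bysl, the mammalian Enp1, which stays on the small subunit until late steps, showed the reverse contrast. Its mouse level was 133, 124 and 104 CPM in WT and 96.2, 87.1 and 88.9 CPM in cKO libraries (log2 -0.41, SE 0.09, adjusted p = 0.0119, edgeR), with adjusted p = 0.0537 without cKO replicate 3. Human BYSL was at 47.8 ± 1.15 CPM with shNC and 48.1 ± 1.34 with shDDX21, with an interval of the log2 change from -0.09 to 0.10. Imp3, which helps U3 RNA pair with the precursor, was read at 24.4, 23.7 and 24.0 CPM in WT and 19.9, 18.5 and 19.7 CPM in cKO libraries (log2 -0.31, SE 0.07, adjusted p = 0.00895). Human IMP3 fell by 0.46 on the log2 scale, but 58.1% of its exon bases lie opposite exons of other genes, and whether strand was used in counting is not given in the sources used here.

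NOL10 fell in both experiments. It was read at 49.5, 56.1 and 52.2 CPM with shNC and 34.2, 34.0 and 32.5 CPM with shDDX21 (log2 -0.64, SE 0.05, adjusted p = 1.73e-17, edgeR), and the mouse gene fell from 142 ± 1.40 to 128 ± 1.69 CPM (log2 -0.15). NOL11, a vertebrate member of UTP-A, was read at 74.9, 78.1 and 78.8 CPM with shNC against 48.0, 50.8 and 51.5 CPM with shDDX21. Its mouse values were 197, 191 and 200.2 CPM in WT and 201, 207 and 204 CPM in cKO libraries, with cKO above WT in all libraries but no call (log2 0.06, adjusted p = 0.24). Rrp9, a U3 snoRNP protein, had the second lowest mouse value of the 58 (log2 -0.65) and was not called (adjusted p = 0.239). Its libraries spread from 39.6 to 84.4 CPM in WT and from 25.2 to 67.8 CPM in cKO.

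Of the 18 large-subunit factors, 16 fell with shDDX21 (median log2 -0.39) and the other two, NOP2 and LAS1L, were not called. In the cKO cells 4 fell and 3 rose (median -0.04). The human 88.9% stands beside 27.4% of all genes, while the mouse 22.2% fallen and 16.7% risen are near the 15.8% and 20.7% of all genes. All 18 had every shDDX21 library below every shNC library, as 29.5% of all genes did. PES1, BOP1 and WDR12, which form the PeBoW complex needed for cutting between the 5.8S and 28S parts, fell in 3 of 3 members in the human cells (median -0.32).

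BRIX1, an early large-subunit factor, had the largest human fall of the 58 genes (chr5:34915677-34925996, plus strand, hg38). It was read at 48.8, 49.1 and 49.7 CPM with shNC and 26.9, 23.5 and 26.0 CPM with shDDX21, or 51.8% of control (log2 -0.95, SE 0.06, adjusted p = 3.21e-24, edgeR). Mouse Brix1 (chr15:10474779-10485947, minus strand, mm10) was read at 182, 182 and 188 CPM in WT and 213, 233 and 219 CPM in cKO libraries. It rose with no overlap (log2 0.27, SE 0.04, adjusted p = 0.00277, edgeR).

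Wdr12 and Gnl2, a GTPase needed to release large-subunit precursors, rose slightly in the cKO cells. Wdr12 was read at 234, 234 and 246 CPM in WT against 254, 278 and 266 CPM (log2 0.16, SE 0.04, adjusted p = 0.0282, edgeR). Gnl2 was read at 165, 169.8 and 177 CPM against 188, 185 and 187 CPM (log2 0.13, SE 0.04, adjusted p = 0.0371). No library of one group reached the other, but 8 of 14 other settings did not call Wdr12 and 10 of 14 did not call Gnl2, with adjusted p up to 0.198 and 0.332. In the human cells WDR12 fell by 0.32 and GNL2 by 0.48 on the log2 scale, GNL2 from 88.0, 87.7 and 84.0 CPM to 61.9, 61.4 and 62.9 CPM.

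Nucleostemin (GNL3), a nucleolar GTPase known from stem and progenitor cells, fell in both experiments. Mouse Gnl3 was read at 400.5, 403 and 413 CPM in WT and 323, 351 and 331 CPM in cKO libraries (log2 -0.27, SE 0.04, adjusted p = 0.00186, edgeR). Human GNL3 was read at 115, 117 and 115 CPM with shNC and 69.9, 71.9 and 69.9 CPM with shDDX21 (log2 -0.71, SE 0.04, adjusted p = 3.45e-28, edgeR). Neither pair of groups overlapped, and Gnl3, Utp20 and Brix1 were the 3 mouse genes called under all 14 other scalings, filters, models and left-out libraries; none of the 3 changed by 1.5-fold.

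Ppan, the mammalian Ssf1 of the early large subunit, had the largest mouse fall and also wide spread. It was read at 161, 147 and 93.8 CPM in WT and 98.3, 51.5 and 70.9 CPM in cKO libraries (log2 -0.87, SE 0.27, adjusted p = 0.0401, edgeR). The groups overlapped, since the highest cKO library lay above the lowest WT library. The call was lost without WT replicate 1 (adjusted p = 0.126), WT replicate 2 (0.119), cKO replicate 2 (0.0709) or cKO replicate 3 (0.124). Human PPAN was at log2 -0.60, but 49.2% of its exon bases are shared with other genes on its strand, as are 54.4% of those of NOP2.

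**Figure D2:**
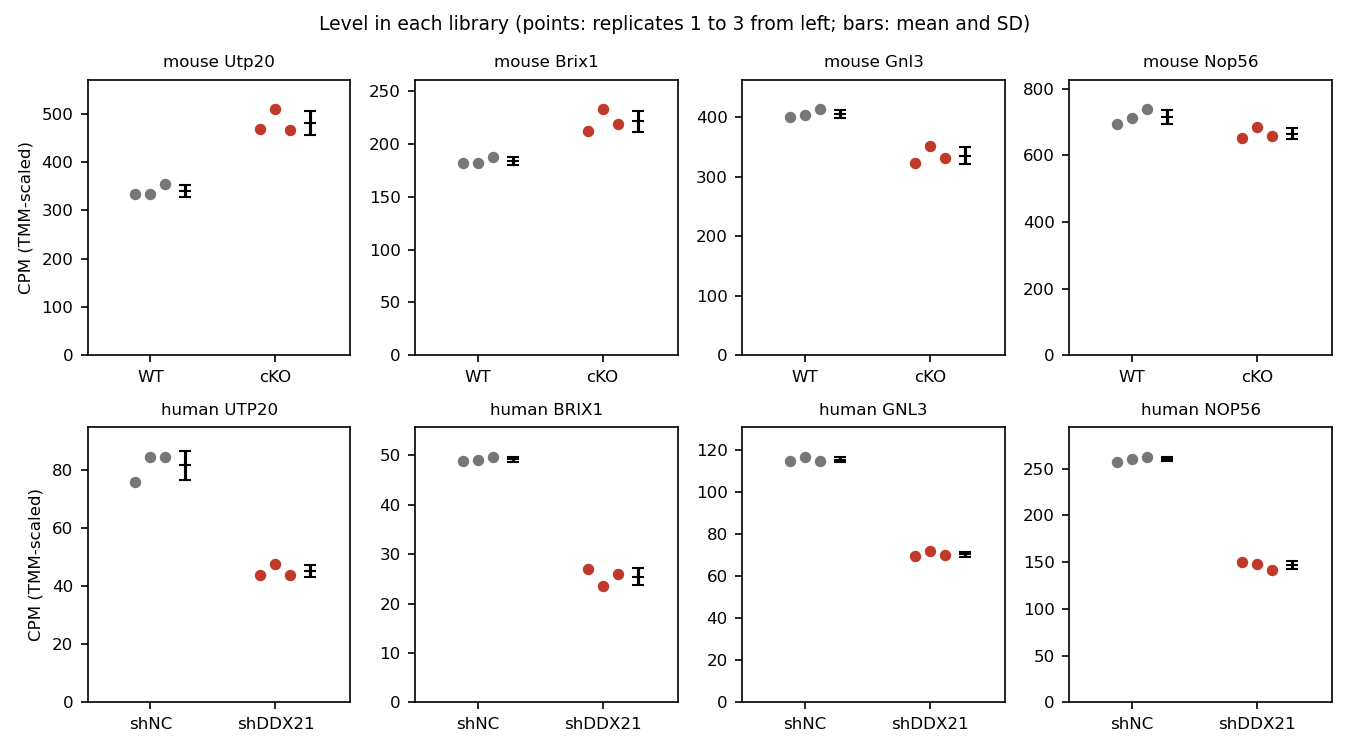
CPM of UTP20, BRIX1, GNL3 and NOP56 in each library, mouse above and human below, with the 3 libraries of a group as points and their mean and SD beside them; the axes start at 0. UTP20 and BRIX1 are higher in cKO than in WT and lower with shDDX21 than with shNC, whereas GNL3 is lower in both and NOP56 is clearly lower in the human panel.

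The experiments were then compared gene by gene in 1 model of all 12 libraries over 10313 genes matched by symbol. Its p-values rest on 1 spread per gene shared by all libraries. The biological coefficient of variation was 10.5% in the mouse and 2.23% in the human libraries. At an adjusted p under 0.05, the mouse log2 change was called above the human one for 32 of the 58 genes (55.2%). It was called below for 1 (1.72%), where 35.8% and 20.4% of all matched genes were called above and below. The median difference was 0.27 over the 58 genes and 0.09 over all matched genes. By role, the mouse change was called above the human for 14 of 18 large-subunit factors, 12 of 28 small-subunit factors, 4 of 8 snoRNP proteins and 2 of 4 general proteins. The gene called below was BYSL. Species, cell type, way of losing DDX21 and its timing all differ between the experiments and cannot be told apart.

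The 6 smallest p-values of this comparison belonged to BRIX1, UTP20, NOP56, NOL11, NOP58 and GNL2, with adjusted p from 5.21e-08 to 8.87e-07 (edgeR). UTP20 differed most, by 1.35 (SE 0.08) on the log2 scale, and BRIX1 next, by 1.22 (SE 0.07). NOP56, NOP58, NOL11 and GNL2 differed by 0.72, 0.70, 0.68 and 0.61. These 6 genes all fell with shDDX21, while in the cKO cells 3 of them rose and 3 were not called.

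Set side by side, 9 genes fell in both experiments: NCL, GAR1, NOLC1, UTP15, IMP3, NOL10, RRP1B, GNL3 and PPAN. Of these 9, only GNL3 kept its mouse call under all 14 other settings, and GAR1 and IMP3 lost theirs with a GC offset. Those that fell with shDDX21 and rose in the cKO were UTP20, WDR12, GNL2 and BRIX1. The mouse calls of WDR12 and GNL2 were lost under some of the other settings. A further 31 fell in the human cells and were not called in the mouse, 5 fell in the mouse and were not called in the human cells (NHP2, UTP3, EMG1, BYSL and LAS1L), and 9 were called in neither. Over the 58 genes, mouse and human log2 changes were correlated at -0.21 (Pearson) and -0.22 (Spearman), given as a description of genes that share the same libraries.

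**Figure D3:**
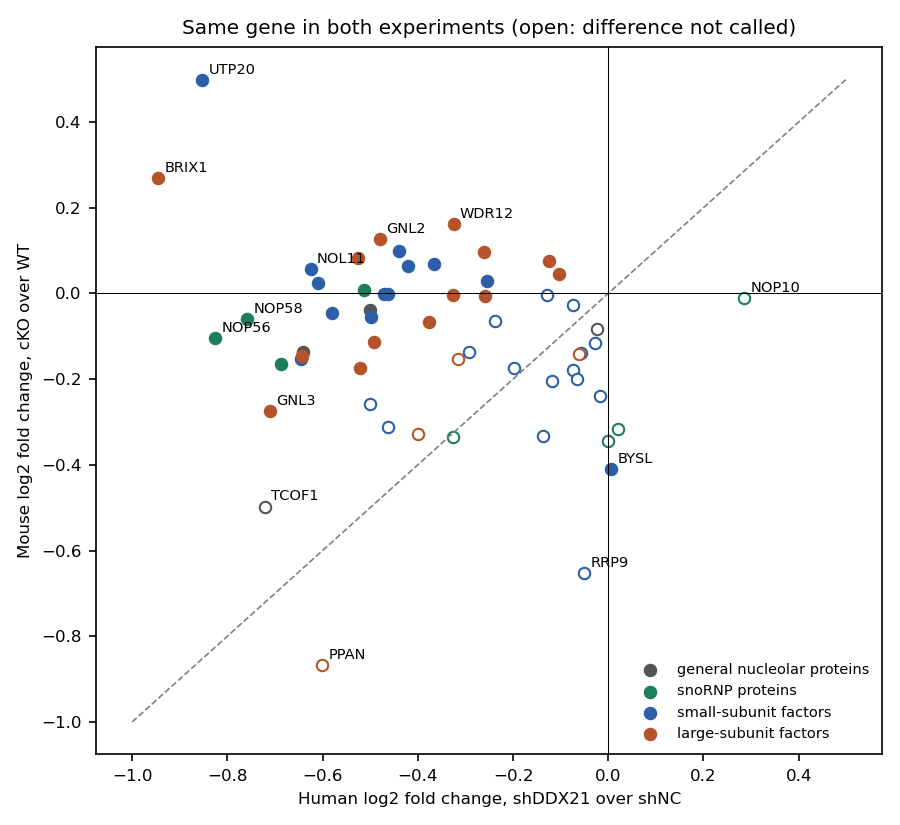
Mouse log2 fold change (vertical axis) against the human one (horizontal axis) for the 58 genes; filled points differ between the experiments at an adjusted p under 0.05, colours mark the roles and the dashed line marks equal changes. Most points lie above the line, UTP20 and BRIX1 farthest, and BYSL is the filled point below it.

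Mouse changes followed the base composition of the transcripts. Over the 58 genes the mouse log2 change had a Spearman rho of -0.70 (Pearson r -0.71) with transcript GC content, while over all 12160 mouse genes with a GC value rho was -0.19. The 12 genes of at least 55% GC had a median log2 change of -0.32, and the 17 genes under 45% had -0.00. Libraries of 1 group already differed by GC. The deviation of a library from its group mean had a rho with GC of 0.71 and 0.63 in WT replicates 1 and 2, -0.72 in WT replicate 3, 0.88 in cKO replicate 1, -0.83 in cKO replicate 2 and 0.24 in cKO replicate 3. The median coefficient of variation among WT libraries was 11.5% for the 12 GC-rich genes, which include Ppan, Rrp9 and Tcof1, and 2.90% for the 17 GC-poor ones.

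With a GC offset per library, an alternative chosen after seeing the data, 27 mouse members were called in place of 18, 8 higher and 19 lower. The share of all mouse genes called with this offset is not given here. The rise in calls therefore cannot be read as particular to the members. Gar1 and Imp3 then lost their calls, at log2 -0.16 (adjusted p = 0.0900, edgeR) and -0.20 (0.0787). Ppan stood at -0.62 (0.000372), and Tcof1 was called at -0.30 (0.00510). Utp20 stood at 0.50, Brix1 at 0.30 and Gnl3 at -0.26, all called. The offset takes out a GC trend per library, whatever the source of that trend, but differences that follow GC may remain among the members. Those newly called lower had from 50.5% (Nop56) to 58.2% GC (Bop1). Those newly called higher had from 41.1% (Gtpbp4) to 46.9% (Wdr3). Gar1 and Imp3, which lost their calls, had 57.0% and 55.7%. How much of the relation with GC was left among the members was not tested.

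**Figure D4:**
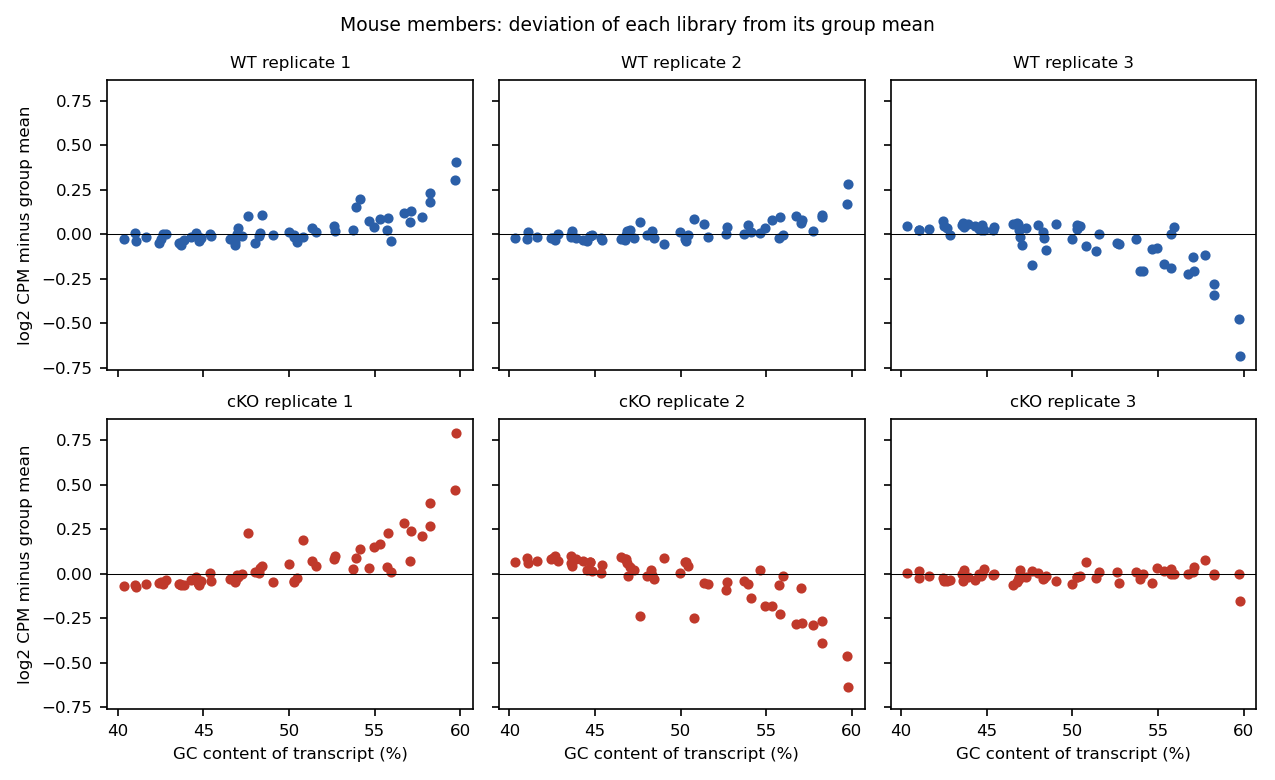
Deviation of log2 CPM from the group mean (vertical axis) against transcript GC percent (horizontal axis) for the 58 mouse genes, 1 panel per library. GC-rich genes are high in WT replicates 1 and 2 and cKO replicate 1, low in WT replicate 3 and cKO replicate 2, and near 0 in most points of cKO replicate 3.

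Upstream sequences of the mouse genes were read from RefSeq (GRCm38.p6), where 49 of the 58 had an entry, in 54 windows. The 250 bases before each start were searched on both strands for CCGGAAG, the core bound by ETS family factors, and CACGTG, the E-box bound by MYC and other helix-loop-helix proteins. CCGGAAG was found in 33.3% of the 54 windows, in 13.3% of the 12967 windows of genes tested in the mouse and in 6.91% of all 32851 windows. CACGTG was found in 11.1%, 8.23% and 6.02% of them. The 17 genes with CCGGAAG had a median log2 change of -0.14 in the mouse and -0.29 in the human cells, and the 32 without it had -0.06 and -0.48. The following sequences belong to 2 of the 4 members called in opposite directions, Utp20 and Brix1, and to 2 that fell in both, Gar1 and Nolc1. Of the other members called in opposite directions, Wdr12 held neither motif in its windows and Gnl2 had no entry. Capitals mark CCGGAAG on either strand, and each sequence ends at the base before the annotated start.
Utp20, chr10:88826815-88827064, minus strand: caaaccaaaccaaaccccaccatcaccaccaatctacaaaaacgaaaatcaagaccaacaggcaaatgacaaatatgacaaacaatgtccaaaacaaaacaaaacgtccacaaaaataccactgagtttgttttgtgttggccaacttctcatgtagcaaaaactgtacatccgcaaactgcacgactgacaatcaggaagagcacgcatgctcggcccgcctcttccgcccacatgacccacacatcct
Brix1, chr15:10485938-10486187, minus strand: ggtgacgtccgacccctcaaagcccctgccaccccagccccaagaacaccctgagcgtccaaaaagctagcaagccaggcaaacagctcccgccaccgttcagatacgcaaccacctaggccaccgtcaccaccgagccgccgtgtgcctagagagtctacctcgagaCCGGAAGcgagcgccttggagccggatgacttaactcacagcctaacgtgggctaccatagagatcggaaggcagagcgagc
Gar1, chr3:129831397-129831646, minus strand: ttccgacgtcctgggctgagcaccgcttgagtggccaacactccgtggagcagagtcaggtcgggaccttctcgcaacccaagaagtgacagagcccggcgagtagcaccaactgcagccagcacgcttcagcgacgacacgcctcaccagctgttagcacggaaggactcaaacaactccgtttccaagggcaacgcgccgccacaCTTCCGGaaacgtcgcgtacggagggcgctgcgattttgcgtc
Nolc1, chr19:46075597-46075846, plus strand: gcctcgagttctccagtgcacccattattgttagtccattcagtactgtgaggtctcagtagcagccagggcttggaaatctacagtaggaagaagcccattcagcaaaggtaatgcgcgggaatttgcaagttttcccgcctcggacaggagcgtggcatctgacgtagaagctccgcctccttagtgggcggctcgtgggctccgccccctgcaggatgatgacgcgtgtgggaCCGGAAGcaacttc

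The motif began at position -82 from the start in Brix1, -43 in Gar1 and -14 in Nolc1, and neither motif was in the Utp20 window. Brix1 rose and Gar1 and Nolc1 fell in the cKO cells, so members with this sequence were found in both directions.

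For levels between genes, counts were scaled by exon length to TPM (transcripts relative to a fixed library sum). In WT mouse cells Npm1 was highest at 4754 ± 342 TPM, followed by Ncl at 1833 ± 46.3, Nolc1 at 822 ± 21.7, Mybbp1a at 758 ± 7.91 and Nop56 at 646 ± 36.9 (SD, n = 3). In shNC cells NCL came first at 591 ± 5.92 TPM, then NPM1 at 559 ± 4.44, NOLC1 at 277 ± 2.75, FBL at 274 ± 8.38 and NOP56 at 198 ± 2.45. NOLC1 and FBL did not differ beyond their spread. The lowest were Imp4 in the mouse at 71.8 TPM and NOP2 in the human cells at 4.29 TPM. Human NOP2 had 98, 89 and 90 counts with shNC, and 54.4% of its exon bases are shared with another gene on its strand. Whether this sharing lowered its count was not tested. Exon lengths count every annotated transcript, retained introns included, so a gene with such models reads low. Control levels of mouse and human genes had a Spearman rho of 0.40 over the 58 genes, and log2 changes had a rho with log level of -0.00 in the mouse and -0.08 in the human cells.

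Outside the list, 60 other ribosome assembly factors were tested. With shDDX21, 42 of the 60 fell and 3 rose (median log2 -0.26), and in the cKO cells 11 fell and 2 rose (median -0.08). Over all genes 27.4% fell and 25.3% rose in the human cells and 15.8% fell and 20.7% rose in the mouse, so the mouse share fallen was close to the background. CEBPZ, a large-subunit factor, fell most in the human cells, from 83.7 ± 0.564 to 33.5 ± 1.31 CPM (log2 -1.32, SE 0.05, adjusted p = 1.64e-37, edgeR). NOL8 and MAK16 fell by 1.06 each on the log2 scale, and NOP53, ZNF622 and NOL12 rose by 0.42, 0.24 and 0.41. In the mouse, Mak16, an early large-subunit factor, rose from 73.8 ± 2.93 to 95.2 ± 7.02 CPM (log2 0.37, SE 0.06, adjusted p = 0.00402, edgeR), and Riok2, a kinase of late small-subunit steps, rose by 0.23. Human RIOK2 fell by 0.41. Pelp1, Rrs1 and Urb2 fell in the mouse, by 0.50, 0.21 and 0.20. The mouse count of 13 called became 5 without WT replicate 1, 4 without WT replicate 2, 8 without cKO replicate 2 and 4 without cKO replicate 3.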

How the data were processed

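Libraries were prepared from column-purified RNA enriched for mRNA, per the labels' protocols. STAR, featureCounts, DESeq2, mm10 and hg38 are named in the submitters' processing notes, without versions or settings. The authors deposited raw tables of whole-number counts per gene and, for part of the genes, a normalized signal. The normalized signal was checked to be the deposited count divided by 1 constant per library, and tests used the counts. The 12 deposited columns of log2 values per sample were not used.

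Genes kept by filterByExpr were tested with the quasi-likelihood test of edgeR 4.0.16 (R 4.3.3) with TMM factors, 1 fit per experiment, and with 1 fit of 12 libraries for the difference between experiments. P-values were two-sided and Benjamini-Hochberg adjusted over all genes of a fit, with a threshold of 0.05. Standard errors are the log2 change divided by the square root of its F statistic. An exact permutation test of 3 against 3 libraries cannot go below p = 0.1. CPM values use TMM-scaled library sizes. Replicates differed by more than sampling noise, so none were merged.

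On simulated data with 100 genes changed 1.5-fold, the fit recovered 85 of 100 among 14593 genes drawn at the mouse mean levels. It recovered 99 of 100 among 19752 drawn at the human ones, with 10 false calls in the mouse and 11 in the human draw. Genes were drawn independently with 1 common spread, and only well-counted genes were changed. The GC differences and uneven spread of the mouse libraries were left out, so recovery of GC-rich members is not shown. Alternatives were other scalings, filters, DESeq2 1.42.0, a replicate block, a GC offset and leaving out each library. The members and gene lists were chosen with earlier results of these data known. Values per library are given for the largest called rises and falls of each role, up to 2 each, and for the 6 smallest p-values of the comparison of experiments. A few others, such as Tcof1 and Rrp9 in the mouse, FBL and Gnl2, were added after their values were seen.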

Additional observations from a re-analysis of the deposited data

Results flagged for a closer look

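The change on loss of DDX21 differed between the mouse and the human experiment for the following genes, by the test of the difference itself in edgeR's quasi-likelihood fit of all 12 libraries. Each value is the mouse minus the human log2 fold change. For BRIX1 it was 1.22 (adjusted p = 5.21e-08), for UTP20 1.35 (5.31e-08), for NOP56 0.72 (1.53e-07), for NOL11 0.68 (5.11e-07), for NOP58 0.70 (6.69e-07), for GNL2 0.61 (8.87e-07) and for WDR12 0.49 (6.12e-05). BYSL was the member called with a negative difference, -0.42 (adjusted p = 0.00706), from a mouse fall and a human log2 change of 0.01. BRIX1, UTP20, GNL2 and WDR12 were called in opposite directions in the 2 experiments. The mouse rises of BRIX1 and UTP20 were called under every alternative run for the mouse, and those of GNL2 and WDR12 were not. All 8 differences kept their sign and their call at the adjusted p threshold under the 19 other scalings, filters, models and left-out libraries. A 1.5-fold minimum is not met by WDR12 and BYSL.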

How the results depend on the processing

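The mouse count of 18 called members rested on single libraries: leaving out 1 library gave 7 to 25 (10 without WT replicate 1, 10 without WT replicate 2 and 7 without cKO replicate 3). It was 10 with upper-quartile factors, 12 with total counts and 1 with a 1.5-fold minimum. The human count of 44 was 13 with that minimum, 39 to 43 without 1 library and 41 with upper-quartile factors, which called FBL and NPM1 higher; with total counts it was 49, with NPM1 called lower. The count of 33 differences between experiments was 8 with that minimum and 32 to 37 without 1 library. For the other assembly factors, the mouse count of 13 was 2 with the minimum, 7 with upper-quartile factors, 8 with total counts (5 risen and 3 fallen), 20 with the GC offset and 4 to 16 without 1 library, and the human count of 45 was 6 with the minimum. Of the 10 human members highest by TPM, 5 were among the 10 highest by CPM.

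No called member or difference changed sign. Among those not called, 14 of 40 in the mouse, 10 of 14 in the human cells and 9 of 25 differences did so under some alternative. Leaving aside the 1.5-fold minimum, 3 of 18 mouse members, 39 of 44 human members and 30 of 33 differences were called under every other alternative run. Same-numbered libraries were not consistently alike: their deviations correlated at 0.32, -0.18 and 0.01 in the mouse and at -0.01, -0.00 and -0.00 in the human cells. Mouse WT replicate 3 correlated at -0.42 with cKO replicate 1 and at 0.41 with cKO replicate 2. Since mouse libraries also differed by GC, these correlations cannot tell whether litters or batches were shared. With a replicate block the counts were 18, 44 and 33. Low counts limit human NOP10, near 4 CPM, EMG1 and NOP2. Of the exon bases of EMG1, 11.2% are shared with other genes on its strand and 55.5% lie opposite exons of other genes. For NOP2, 54.4% are shared on its strand. Whether this sharing lowered their counts was not tested.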
